A study of Mus musculus with 24 samples.

Results

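The genes described here are the collagens of the mouse ear other than those that mark cartilage. They were taken from the gene table by their symbol, Col followed by a chain number, a and a second number, which 44 genes matched. The cartilage collagens Col2a1, Col9a1, Col9a2, Col9a3 and Col11a2 and the keratinocyte collagen Col17a1 were left out, and the remaining 38 genes of 51912 in the table are the members. They were sorted into 9 fibrillar collagens, 9 collagens of the basement membrane and its zone, and 20 others. PolyA RNA was sequenced from 24 samples labelled Whole Ear and C57BL/6, with 6 samples in each of 4 groups. The groups were Wt and CARD14E138A ears 5 days after the first Tamoxifen injection, and Wt and CARD14E138A ears 1 month after it. All 4 groups, Wt included, received Tamoxifen intraperitoneally on consecutive days. The CARD14E138A mice carry Card14LSL-E138A at the endogenous Card14 locus, and Tamoxifen acts through CreERT2 to switch on the psoriasis-associated mutant protein. No source used here gives the promoter that drives CreERT2, the age of the mice, or whether the Wt mice carried CreERT2. Nor is each sample stated to be its own mouse, so every p-value rests on sample-to-sample spread, which may be technical. CARD14E138A is shortened to E138A below.

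Collagens are proteins built of 3 chains wound into a triple helix, and each gene encodes 1 chain. Fibrillar collagens, mainly types I and III, form the ropes that give dermis its tensile strength, and fibroblasts make most of them. Type IV collagen forms the sheet of basement membranes under epidermis and around vessels, type VII anchors the epidermal basement membrane to the dermis, and types VI, XII and XIV sit between or on the fibrils. Newly made chains are hydroxylated, trimmed and cross-linked by dedicated enzymes, and the finished fibrils are broken down by metalloproteinases and cathepsin K.

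Libraries held 15661515 to 16998900 counts in Wt and 16803680 to 18852963 in E138A ears at day 5, and 19255028 to 23904976 and 20608274 to 23022149 at 1 month. Card14 itself lay at 35.5 to 55.2 CPM (counts per 1000000 counts of the library) in Wt and 34.7 to 67.8 CPM in E138A ears at day 5, and at 31.1 to 50.4 and 9.66 to 23.0 CPM at 1 month. Gene counts do not tell the mutant from the normal allele, so they check the presence of the mutation in no library. Libraries differed in how the deviation of genes from their mean over all libraries correlated with gene GC content (11116 genes), and most so at 1 month. There E138A replicates 3, 4 and 5 lay at -0.416, -0.500 and -0.436 and replicates 1, 2 and 6 at 0.495, 0.281 and 0.581, so that the group fell into 2 sets. In Wt ears at 1 month the correlation was -0.459 in replicate 1 and -0.146 in replicate 6, 0.198, 0.310 and 0.333 in replicates 3, 4 and 5, and 0.593 in replicate 2. At day 5 it ran from -0.406 to 0.0453. Results are also given, where they change, without the 3 libraries above 0.4. At 1 month they are also given within the libraries below 0 and within those above 0. The 3 libraries above 0.4 are 1 Wt and 2 E138A libraries of 1 month. Leaving them out removes no day 5 library, and day 5 results then change only through what the fit shares over all libraries.

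The 38 collagen genes together took up 1.92% ± 0.247 (SD, n = 6) of all counts in Wt ears at day 5 and 0.767% ± 0.196 in E138A ears. The lowest Wt library, at 1.52%, lay above the highest E138A library, at 1.03%. At 1 month the order of the genotypes was the opposite, with 1.23% ± 0.182 in Wt and 2.18% ± 0.917 in E138A ears. There the ranges overlapped, 1.03% to 1.49% in Wt and 1.40% to 3.86% in E138A, and the highest value came from E138A replicate 6. Without that library the E138A mean was 1.84%. Most of these counts belonged to Col1a1, Col1a2 and Col3a1, the chains of types I and III, which alone took 1.39% ± 0.196 in Wt and 0.492% ± 0.147 in E138A ears at day 5. No test was run on these sums. In bulk RNA of a whole ear, fewer cells of a type and less RNA per cell cannot be told apart.

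**Figure D1:**
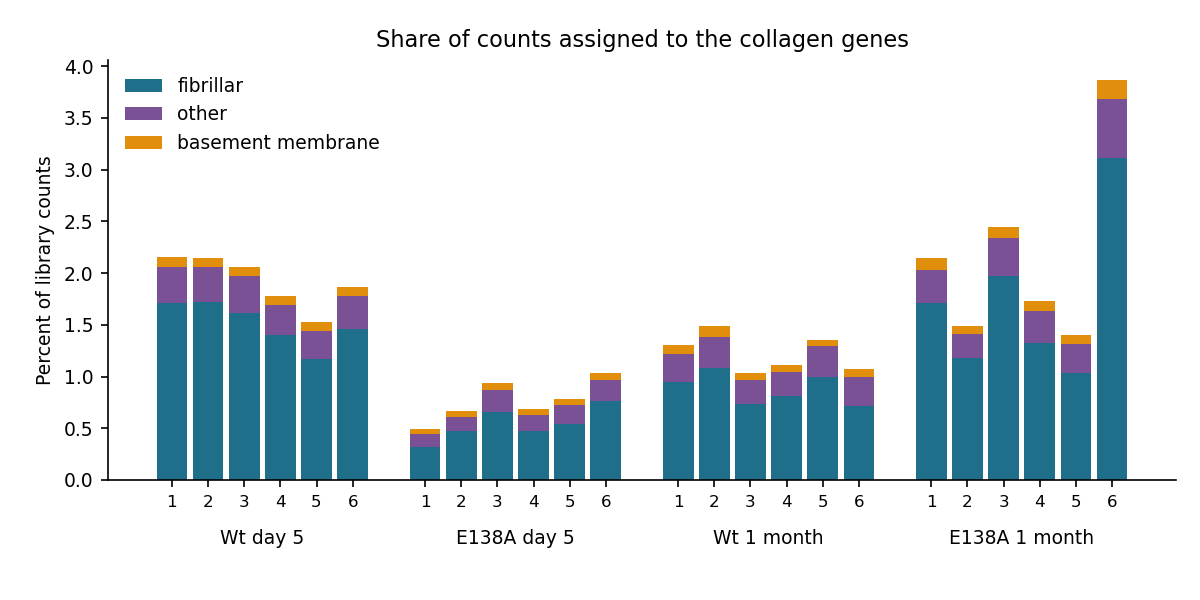
Share of library counts assigned to the 38 collagen genes (vertical axis, percent) in each of the 24 libraries (horizontal axis, replicate number within group), stacked by class. At day 5 the 6 E138A libraries lay at 0.495% to 1.03%, all below the 6 Wt libraries at 1.52% to 2.15%, and at 1 month E138A replicate 6 reached 3.86%.

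Of the 38 members, 36 passed the filter on low counts and were tested with the other genes in 1 model. At day 5, 27 of the 36 fell in E138A ears (quasi-likelihood test of edgeR, p adjusted by Benjamini-Hochberg over 17287 genes, below 0.05), where 20.2% of all genes fell. Col6a4 and Col6a5 rose, where 20.7% of all genes rose, and 7 members did not pass the test. The median log2 fold change over the 36 was -1.06, against -0.02 over all genes tested. For 23 members every E138A library lay below every Wt library, which was so for 16.7% of all genes.

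At 1 month the same comparison gave a different picture. Of the 36 members 19 rose (25.5% of all genes did), 11 fell (21.5% of all genes did) and 6 did not pass the test. The median log2 fold change was 0.63, against 0.05 over all genes. In 8 members all E138A libraries lay above all Wt libraries (10.4% of all genes), and in 7 they lay below (11.1%). Without the 3 libraries above 0.4, 17 members rose and 12 fell. The rises of Col5a1, Col6a1 and Col6a2 were then not called (log2 0.43, 0.30 and 0.20, adjusted p = 0.0763, 0.129 and 0.401), while Col28a1 was called higher (log2 0.80, adjusted p = 0.00949) and Col5a3 lower (log2 -0.45, adjusted p = 0.0286). Within the 2 Wt and 3 E138A libraries of 1 month whose GC correlation was below 0, 14 members rose and 12 fell, and within the 4 Wt and 3 E138A libraries above 0, 18 rose and 11 fell. In the smaller set Col1a2 and Col24a1 also missed the threshold (log2 0.63 and 0.91, adjusted p = 0.0828 and 0.0675) and Col7a1 was called lower (log2 -0.76, adjusted p = 0.0232), and in the larger set Col6a5 missed it (log2 0.98, adjusted p = 0.159).

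Set side by side, the 36 members fell into a few patterns. In 11 of them, Col1a1, Col1a2, Col3a1, Col5a1, Col5a2, Col24a1, Col6a1, Col6a3, Col13a1, Col14a1 and Col18a1, RNA was lower in E138A ears at day 5 and higher at 1 month, a course that 0.908% of all genes followed. Another 11 were lower at both times, where 13.3% of all genes were. These were Col4a3, Col4a4, Col4a5, Col4a6, Col8a1, Col8a2, Col10a1, Col20a1, Col22a1, Col25a1 and Col27a1. Col6a4 and Col6a5 were higher at both times (16.5% of all genes). Col4a1, Col4a2, Col6a2, Col12a1, Col15a1 and Col23a1 were called at 1 month alone, all higher (8.14% of all genes). Col5a3, Col6a6, Col7a1, Col11a1 and Col16a1 were called at day 5 alone, all lower (5.97% of all genes). Col28a1 was called at neither time (42.9% of all genes). Without the 3 libraries above 0.4, 10 members were lower then higher and 12 were lower at both times. Col5a1 and Col6a1 then left the lower-then-higher set and Col15a1 joined it. Without E138A 1-month replicate 6 alone, 9 were lower then higher and 13 were lower at both times.

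**Figure D2:**
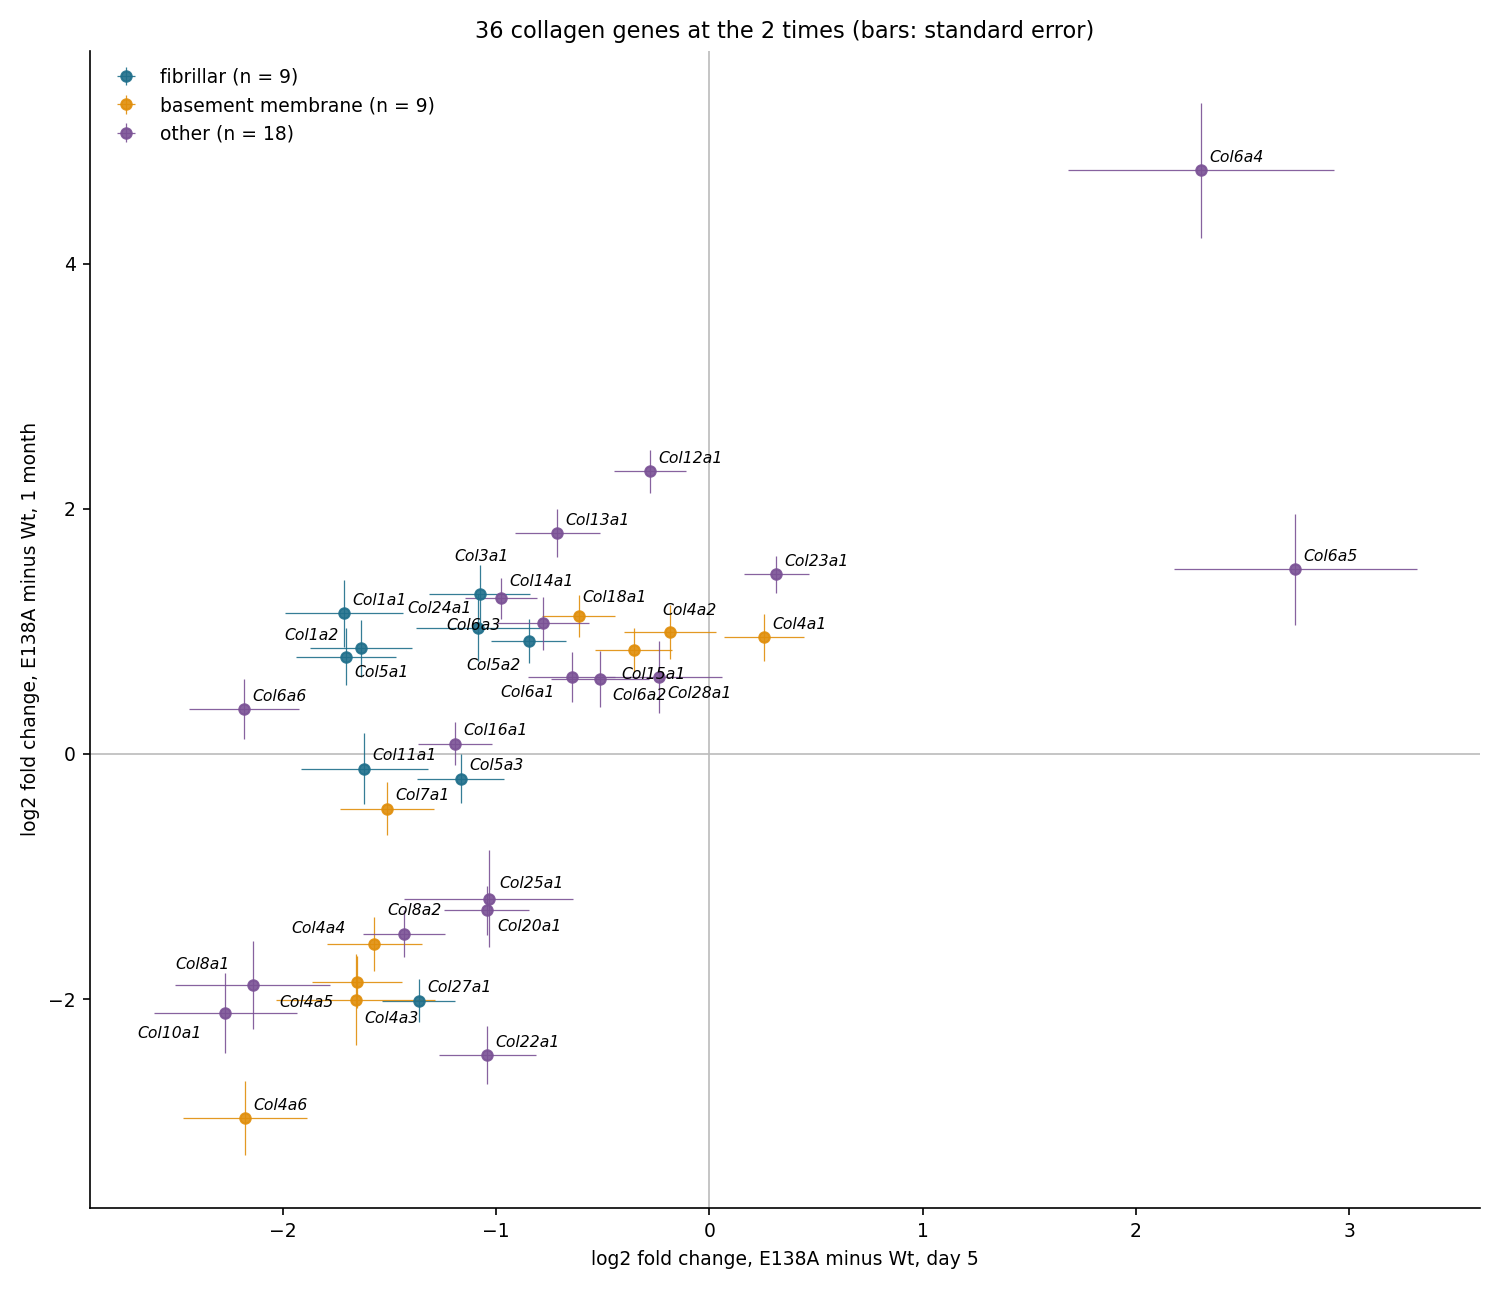
Log2 fold change of E138A over Wt at day 5 (horizontal axis) and at 1 month (vertical axis) for the 36 tested collagen genes, coloured by class, with standard errors as bars. The upper left includes the genes called lower at day 5 and higher at 1 month, such as Col1a1 (-1.71 and 1.15). The lower left includes those called lower at both, such as Col4a6 (-2.18 and -2.97). Each also holds genes not called at both times, such as Col12a1 in the upper left and Col7a1 in the lower left.

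The start of the gene is shown for 3 members of each of the larger patterns, those with the highest level per length among members whose 120 bases before the RefSeq start hold no annotated exon. Sequences are from RefSeq, build GRCm38.p6, given from 5′ to 3′ on the strand of the gene, and end at the base before the start site. Capitals mark TATAAA (the TATA box), CCAAT and GGGCGG (the GC box), read on either strand. Lower at day 5 and higher at 1 month:
Col3a1, chr1:45311418-45311537, plus strand: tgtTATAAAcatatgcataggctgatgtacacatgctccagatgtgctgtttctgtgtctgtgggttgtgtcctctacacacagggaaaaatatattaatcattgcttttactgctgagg
Col6a3, chr1:90843972-90844091, minus strand: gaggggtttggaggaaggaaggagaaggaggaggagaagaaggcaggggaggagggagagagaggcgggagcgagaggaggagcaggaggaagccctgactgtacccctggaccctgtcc
Col5a1, chr2:27886305-27886424, plus strand: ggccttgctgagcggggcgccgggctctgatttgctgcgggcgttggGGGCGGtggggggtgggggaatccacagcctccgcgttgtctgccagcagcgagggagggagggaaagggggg
Lower at both times:
Col8a1, chr16:57754738-57754857, minus strand: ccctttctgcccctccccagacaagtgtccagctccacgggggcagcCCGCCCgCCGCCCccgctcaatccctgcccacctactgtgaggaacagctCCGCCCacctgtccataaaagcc
Col27a1, chr4:63215292-63215411, plus strand: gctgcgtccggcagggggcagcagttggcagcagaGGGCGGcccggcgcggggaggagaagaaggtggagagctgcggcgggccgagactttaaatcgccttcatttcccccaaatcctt
Col4a6, chrX:141474077-141474196, minus strand: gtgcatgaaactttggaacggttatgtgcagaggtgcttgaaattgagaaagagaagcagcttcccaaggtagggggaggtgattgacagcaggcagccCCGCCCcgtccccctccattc
A promoter window was found for 31 members. Over the 250 bases before the start, GGGCGG was in 19 of these 31 (61.3%), against 32.7% of 32851 windows in the table. A member counted once if any of its windows held the match, whereas the table was counted by window, so the units differ. CCAAT was in 35.5% of the members and 33.8% of all windows, and TATAAA in 9.68% and 12.4%. Among members with a window, GGGCGG was in 3 of the 8 lower then higher and in 6 of the 9 lower at both times. A match is a description of the letters and no evidence of binding.

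The fibrillar collagens moved as a group at day 5, when all 9 fell in E138A ears, with a median log2 fold change of -1.36 and E138A below Wt in every library for 8 of the 9. At 1 month 6 of the 9 rose, Col27a1 fell, and Col5a3 and Col11a1 did not pass the test, with a median of 0.86. Values after ± are the SD over 6 samples for levels and ratios and the standard error (SE) for log2 fold changes. In Wt ears at day 5 the level per length (CPM per kilobase of transcript) was 901 for Col1a2, 827 for Col3a1 and 763 for Col1a1, then 53.3 for Col5a1, 49.6 for Col5a2, 27.4 for Col27a1, 17.0 for Col5a3, 11.1 for Col11a1 and 0.504 for Col24a1. In E138A ears at 1 month Col3a1 stood first at 1181 CPM per kilobase, ahead of 868 for Col1a2 and 826 for Col1a1.

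Col1a1 (ENSMUSG00000001506, GRCm38 chromosome 11, 94936224 to 94953042) encodes the chain that type I collagen, the main fibril of skin, holds in double dose. At day 5 it was read at 3571 to 5140 CPM (median 4652) in Wt and at 809 to 1911 CPM (median 1194) in E138A ears, and the ranges were apart. The fall was 3.28-fold, a log2 fold change of -1.71 ± 0.28 (SE; adjusted p = 3.17e-05), the largest fall among the fibrillar genes at that time. At 1 month Wt ears ran from 1774 to 3185 CPM (median 2221) and E138A ears from 2625 to 10054 CPM (median 4063). The rise was 2.21-fold (log2 1.15 ± 0.27, adjusted p = 0.00128). The ranges overlapped, and E138A replicate 6 was far above the next library, which lay at 5301 CPM.

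Col1a2, the other chain of type I, followed the same course. Its day 5 levels were 3773 to 5388 CPM (median 5006) in Wt and 987 to 2033 CPM (median 1362) in E138A ears, with no overlap. The log2 fold change was -1.63 ± 0.24 (adjusted p = 9.55e-06). At 1 month its RNA lay at 2220 to 3503 CPM (median 2592) in Wt and 2761 to 8621 CPM (median 3969) in E138A ears, and the ranges overlapped. The log2 fold change there was 0.86 ± 0.24 (adjusted p = 0.00397).

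Col3a1 encodes type III collagen, which shares fibrils with type I and is abundant in young and healing dermis. It fell from 3467 to 5392 CPM (median 4499) in Wt to 1083 to 3197 CPM (median 2094) in E138A ears at day 5 (log2 -1.08 ± 0.24, adjusted p = 0.00080). At 1 month every E138A library, 4095 to 10696 CPM (median 6131), lay above every Wt library, 2154 to 3441 CPM (median 2917). That rise, 2.47-fold (log2 1.30 ± 0.24, adjusted p = 7.90e-05), was the largest among the fibrillar genes. The counts of Col3a1 relative to those of Col1a1 were 1.02 ± 0.0733 in Wt and 1.57 ± 0.223 in E138A ears at day 5, where the ranges were apart (0.890 to 1.09 and 1.27 to 1.80). At 1 month the ratio was 1.21 ± 0.166 in Wt and 1.43 ± 0.219 in E138A ears, and the ranges overlapped. No test was run on the ratios.

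The minor fibril chains Col5a1 and Col5a2 belong to type V collagen, which starts fibrils and sets their diameter. Col5a2 lay at 237 to 386 CPM (median 327) in Wt and 130 to 219 CPM (median 175) in E138A ears at day 5, with no overlap. Its log2 fold change of -0.85 ± 0.18 (adjusted p = 0.000504) was the smallest fall among the 9. At 1 month the gene lay at 235 to 316 CPM (median 253) in Wt and 322 to 701 CPM (median 434) in E138A ears, again with no overlap (log2 0.92 ± 0.18, adjusted p = 0.000150). Col5a1 fell further at day 5, from 448 ± 60.4 to 132 ± 35.9 CPM (log2 -1.70 ± 0.24, adjusted p = 4.64e-06). Its counts relative to Col5a2 were 1.37 ± 0.0831 in Wt and 0.746 ± 0.0706 in E138A ears at day 5, with ranges apart. The rise of Col5a1 at 1 month, from 257 ± 43.8 to 419 ± 204 CPM (log2 0.79 ± 0.23, adjusted p = 0.00648), rested on E138A replicate 6. Without it the log2 fold change was 0.43 (adjusted p = 0.0504).

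The remaining fibrillar genes parted ways at 1 month. Col27a1, a long fibrillar chain best known from cartilage, was read at 173 to 249 CPM (median 208) in Wt and 61.4 to 112 CPM (median 74.5) in E138A ears at day 5. In ears taken at 1 month it lay at 163 to 294 CPM (median 222) in Wt and 36.0 to 80.7 CPM (median 52.3) in E138A ears. The ranges were apart at both times, with falls of 2.57-fold (log2 -1.36 ± 0.17, adjusted p = 1.33e-06) and 4.04-fold (log2 -2.01 ± 0.17, adjusted p = 4.45e-09). Col24a1, a scarce fibrillar chain, fell from 3.60 ± 1.33 to 1.65 ± 0.596 CPM at day 5 and rose from 3.21 ± 1.15 to 6.28 ± 2.56 CPM at 1 month (log2 -1.08 ± 0.29 and 1.03 ± 0.28). Col11a1, a cartilage chain also made by fibroblasts, fell from 85.1 ± 19.1 to 26.8 ± 8.99 CPM at day 5. At 1 month it was at 72.0 ± 27.5 CPM in Wt and 64.6 ± 29.8 CPM in E138A ears (log2 -0.12 ± 0.29, adjusted p = 0.768). Col5a3, the third type V chain, fell from 104 ± 12.8 to 44.5 ± 11.0 CPM at day 5 (log2 -1.17 ± 0.20). In the 1 month ears it was at 86.7 ± 21.8 CPM in Wt and 70.2 ± 25.4 CPM in E138A ears (adjusted p = 0.436), and without E138A replicate 6 it was called lower (log2 -0.48, adjusted p = 0.0299).

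Col27a1, Col11a1 and Col10a1 are members that cartilage also makes. Cartilage markers fell at both times, as Col27a1 and Col10a1 did, whereas Col11a1 fell at day 5 and was not called at 1 month. Of 12 cartilage markers, 11 were tested. All 11 fell at day 5 (20.2% of all genes) and 9 fell at 1 month (21.5%), with medians of -1.71 and -1.79 on the log2 scale. Their summed level was 677 to 889 CPM in Wt and 228 to 462 CPM in E138A ears at day 5, and 569 to 1292 and 277 to 483 CPM at 1 month. Aggrecan (Acan), the main cartilage proteoglycan, fell from 217 ± 27.5 to 91.9 ± 27.3 CPM at day 5, and Matn1 was at or near 0 in every group, with 0 counts in Wt ears at day 5. Their part in the falls of these 3 collagens was not tested.

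**Figure D3:**
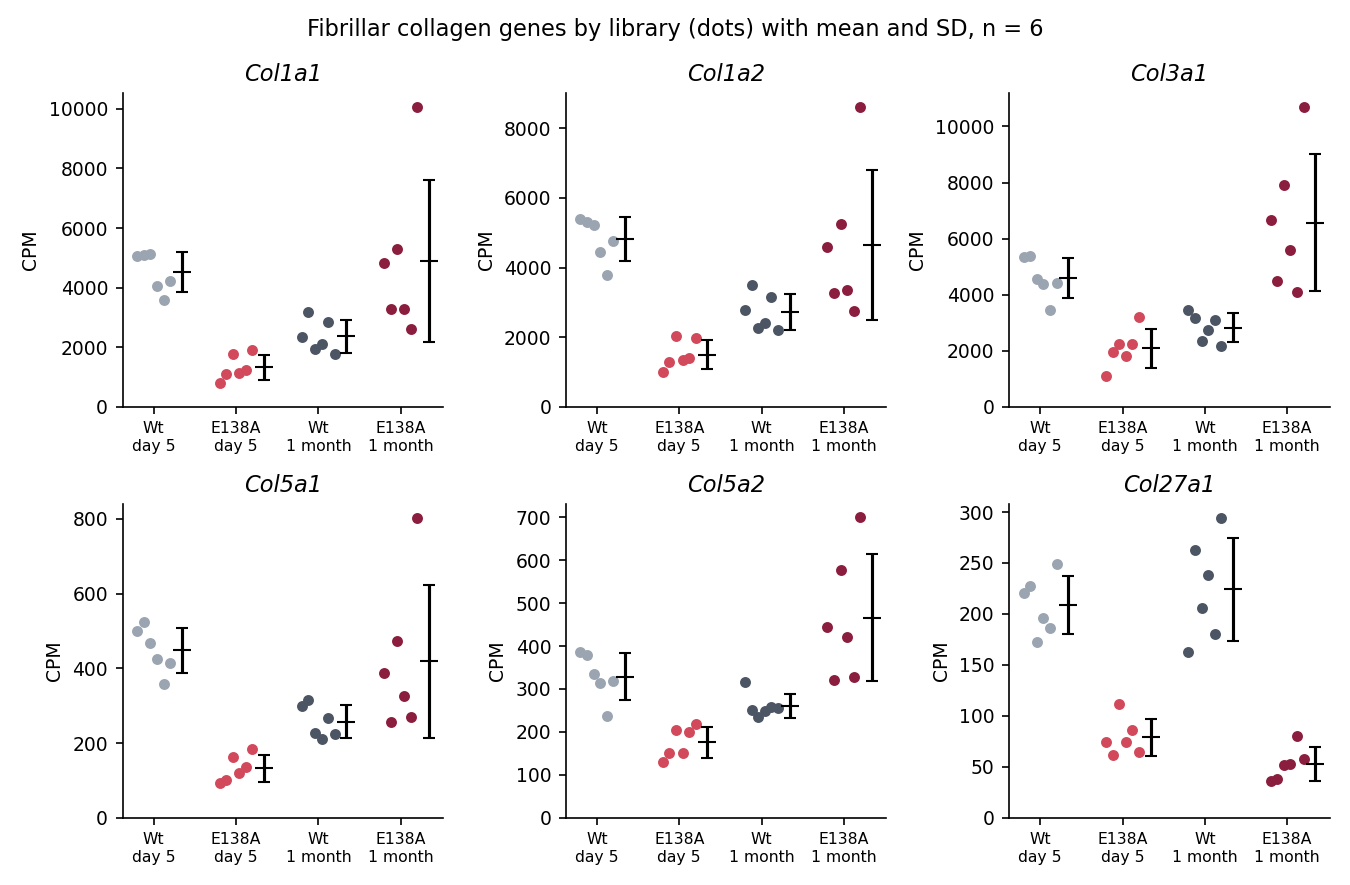
CPM (vertical axes, linear from 0) of 6 fibrillar collagen genes in the 6 libraries of each group (dots), with the mean and SD beside them. For all 6 genes every E138A library at day 5 lies below every Wt library, and at 1 month 5 of the 6 means are higher in E138A, where replicate 6 is the top library for those 5, while Col27a1 is lower (36.0 to 80.7 CPM against 163 to 294).

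The basement membrane collagens split into 2 sets. At day 5, 6 of the 9 fell and Col4a1, Col4a2 and Col15a1 did not pass the test (median log2 fold change -1.51). At 1 month Col4a1, Col4a2, Col15a1 and Col18a1 rose, Col4a3, Col4a4, Col4a5 and Col4a6 fell, and Col7a1 did not pass the test (median -0.45).

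Col4a1 and Col4a2 encode the type IV chains found in nearly all basement membranes, those of vessels included. In Wt ears at day 5 they were read at 177 to 234 CPM (median 188) and 178 to 247 CPM (median 190). In E138A ears Col4a1 lay at 153 to 257 CPM (median 237) and Col4a2 at 112 to 199 CPM (median 176), and both overlapped with Wt. Their log2 fold changes were 0.26 ± 0.19 (adjusted p = 0.296) and -0.18 ± 0.22 (adjusted p = 0.534). The counts of Col4a1 relative to Col4a2 were 0.937 to 1.02 in the Wt and 1.27 to 1.41 in the E138A libraries at day 5, with no overlap and no test.

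At 1 month both rose. Col4a1 lay at 153 to 331 CPM (median 202) in Wt and 259 to 625 CPM (median 358) in E138A ears (log2 0.95 ± 0.19, adjusted p = 0.000223). Col4a2 lay at 128 to 265 CPM (median 158) in Wt and 208 to 590 CPM (median 272) in E138A ears (log2 1.00 ± 0.22, adjusted p = 0.000550). Both pairs of ranges overlapped because of Wt replicate 2, the highest Wt library for each gene and 1 of the 3 with a GC correlation above 0.4. The medians of the 6 endothelial markers were -0.24 at day 5 and 0.32 at 1 month. At 1 month 2 of the 6 were called higher (25.5% of all genes) and none lower (21.5%). Their summed level there was 159 to 268 CPM in Wt and 209 to 344 CPM in E138A ears, and their part in the result was not tested.

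The other 4 type IV chains fell at both times. Col4a5 forms, either with Col4a6 or with Col4a3 and Col4a4, the type IV networks of particular basement membranes. The network of Col4a5 and Col4a6 lies under the epidermis. Col4a6 lay at 35.4 to 56.8 CPM (median 48.9) in Wt and 5.33 to 19.8 CPM (median 7.71) in E138A ears at day 5. A month after the first injection it lay at 18.4 to 52.8 CPM (median 44.7) in Wt and 2.77 to 7.30 CPM (median 4.98) in E138A ears. Neither time showed overlap, and the falls, 4.52-fold (log2 -2.18 ± 0.29, adjusted p = 2.95e-06) and 7.85-fold (log2 -2.97 ± 0.30, adjusted p = 4.20e-08), were the largest of the class.

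Its partner Col4a5 fell from 30.2 ± 3.06 to 9.37 ± 4.21 CPM at day 5 and from 31.1 ± 7.57 to 8.11 ± 1.67 CPM at 1 month (log2 -1.65 ± 0.21 and -1.86 ± 0.21). The counts of Col4a5 relative to Col4a6 were 0.627 ± 0.0636 in Wt and 0.949 ± 0.144 in E138A ears at day 5. At 1 month they were 0.769 ± 0.102 and 1.74 ± 0.472, so that Col4a6 had the larger count in every Wt library and the smaller in every E138A library. Col4a3 and Col4a4, known best from the kidney filter, were scarcer. Col4a3 fell from 6.29 ± 0.752 to 1.94 ± 0.790 CPM at day 5 and from 6.79 ± 3.15 to 1.64 ± 1.10 CPM at 1 month, and Col4a4 from 8.96 ± 1.66 to 2.93 ± 0.924 and from 10.4 ± 2.68 to 3.44 ± 1.28 CPM. Their log2 fold changes ran from -1.55 ± 0.22 to -2.01 ± 0.37.

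The 6 type IV genes lie as 3 pairs that are read away from each other. On chromosome 8 the annotated starts of Col4a1 (minus strand, 11312826) and Col4a2 (plus strand, 11312805) overlap by 22 bases. On chromosome 1, 71 bases part Col4a4 (82586849) from Col4a3 (82586921), and on chromosome X 1308 bases part Col4a6 (141474076) from Col4a5 (141475385). The first pair was not called at day 5 and rose at 1 month, and both other pairs fell at both times. The sources used here do not say whether counting used strand, so reads from the overlap cannot be assigned with certainty.

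Col18a1, a basement membrane collagen whose end fragment is endostatin, lay at 90.3 to 104 CPM (median 94.7) in Wt and 43.1 to 84.7 CPM (median 57.1) in E138A ears at day 5. At 1 month its RNA lay at 72.5 to 114 CPM (median 88.7) in Wt and 139 to 269 CPM (median 160) in E138A ears. The ranges were apart both times, first lower (log2 -0.61 ± 0.17, adjusted p = 0.00625) and then higher (log2 1.12 ± 0.17, adjusted p = 1.04e-05), the largest rise of the class. Col15a1, its closest relative, was at 50.5 ± 7.07 CPM in Wt and 38.0 ± 7.08 CPM in E138A ears at day 5 (log2 -0.36 ± 0.18, adjusted p = 0.121), and without the 3 libraries above 0.4 that difference was called (adjusted p = 0.0267). At 1 month it rose from 52.7 ± 15.8 to 88.5 ± 22.6 CPM (log2 0.85 ± 0.18, adjusted p = 0.000430).

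Col7a1, the chain of the anchoring fibrils that hold epidermis to dermis, lay at 179 to 287 CPM (median 243) in Wt and 57.7 to 117 CPM (median 69.5) in E138A ears at day 5. The ranges were apart and the fall was 2.85-fold (log2 -1.51 ± 0.22, adjusted p = 9.43e-06). In ears taken at 1 month it lay at 85.9 to 263 CPM (median 204) in Wt and 82.4 to 193 CPM (median 132) in E138A ears, with overlap (log2 -0.45 ± 0.22, adjusted p = 0.0952). Leaving out Wt replicate 5 made it a called fall (log2 -0.59, adjusted p = 0.0162), and so did leaving out E138A replicate 6 (log2 -0.64, adjusted p = 0.0177). The summed level of 6 keratinocyte markers was 21956 to 30460 CPM in Wt and 25314 to 31198 CPM in E138A ears at day 5, with 2 markers higher and 2 lower, and 16331 to 28766 and 28294 to 43177 CPM at 1 month, with 3 higher and 3 lower. Of all genes 20.7% rose and 20.2% fell at day 5, and 25.5% rose and 21.5% fell at 1 month. The part of the keratinocyte markers in the falls of Col7a1, Col4a5 and Col4a6 was not tested.

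**Figure D4:**
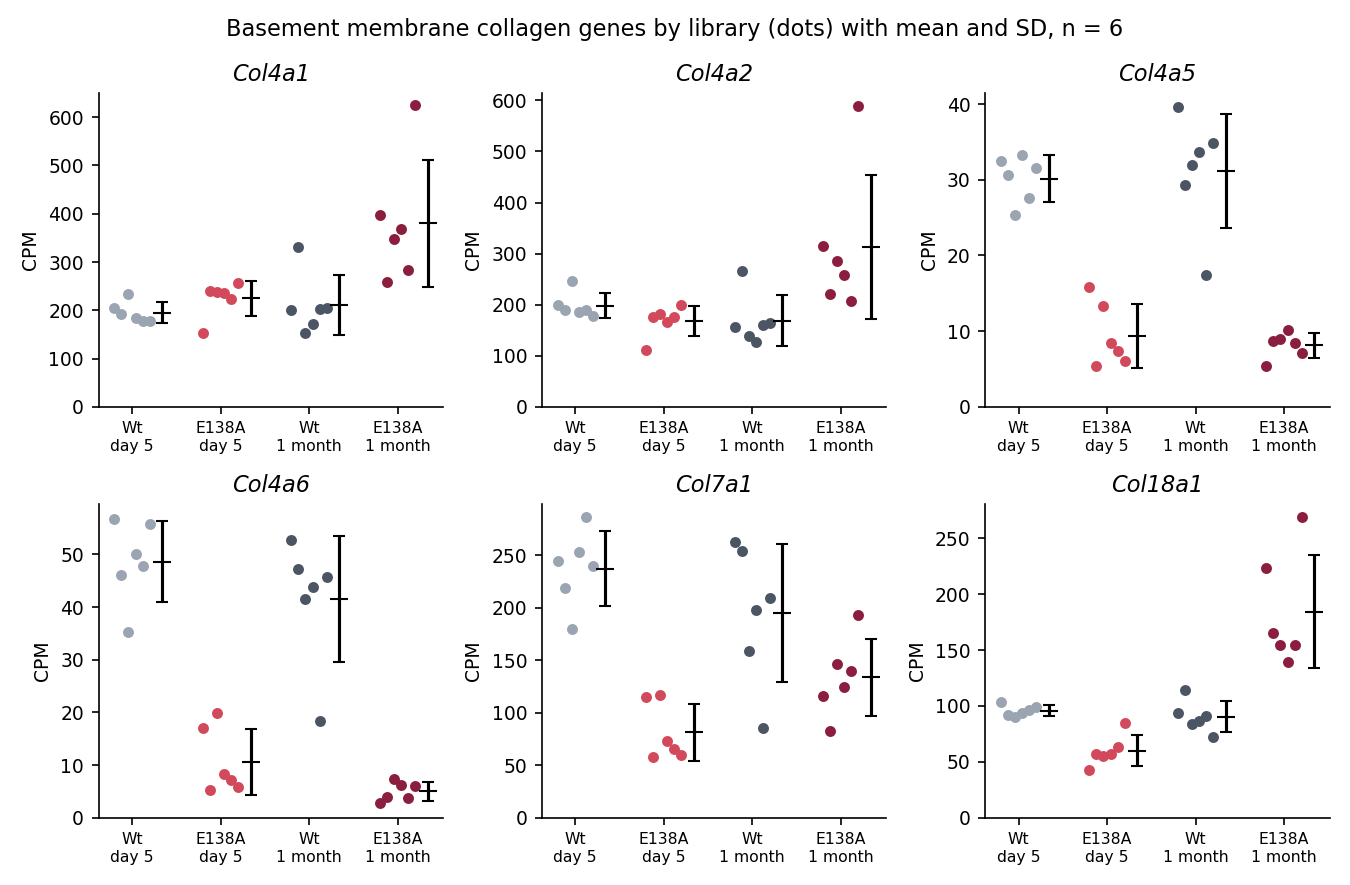
CPM (vertical axes, linear from 0) of 6 basement membrane collagen genes in the 6 libraries of each group (dots), with the mean and SD beside them. Col4a5 and Col4a6 are lower in E138A ears at both times, Col4a1, Col4a2 and Col18a1 are higher at 1 month, and E138A replicate 6 is the top library for these 3 (625, 590 and 269 CPM).

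Among the other collagens, 18 of 20 members passed the filter. At day 5, 12 of the 18 fell and 2 rose, and at 1 month 9 rose and 6 fell (median log2 fold changes -0.88 and 0.62). The 2 that did not pass the filter were Col19a1, with 19, 8, 15 and 4 counts summed over the 6 libraries of Wt day 5, E138A day 5, Wt 1 month and E138A 1 month, and Col26a1, with 38, 22, 51 and 64.

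Type VI collagen forms beaded filaments that link cells to the fibrils, and its common form combines the chains of Col6a1, Col6a2 and Col6a3. Col6a1, the most abundant of the other collagens per length, lay at 686 to 899 CPM (median 787) in Wt and 347 to 639 CPM (median 486) in E138A ears at day 5, with no overlap (log2 -0.65 ± 0.20, adjusted p = 0.0136). By 1 month it lay at 528 to 836 CPM (median 575) in Wt and 649 to 1648 CPM (median 775) in E138A ears, with overlap (log2 0.63 ± 0.20, adjusted p = 0.0132). Without E138A replicate 6, at 1648 CPM, this rise was not called (log2 0.30, adjusted p = 0.122).

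Col6a2 lay at 569 to 796 CPM (median 697) in Wt and 292 to 596 CPM (median 473) in E138A ears at day 5 and missed the threshold (log2 -0.51 ± 0.23, adjusted p = 0.0761), which it passed without the 3 libraries above 0.4 (adjusted p = 0.0141). In the 1 month ears it lay at 467 to 690 CPM (median 483) in Wt and 510 to 1441 CPM (median 646) in E138A ears (log2 0.61 ± 0.23, adjusted p = 0.0303). That call was lost in 6 of the 24 fits that left out 1 library, and without E138A replicate 6 the log2 fold change was 0.27 (adjusted p = 0.248). Col6a3, the largest chain, was called at both times, as Col6a1 was. It fell from 392 to 577 CPM (median 512) to 177 to 360 CPM (median 271) at day 5 (log2 -0.78 ± 0.22, adjusted p = 0.00532), with ranges apart. At 1 month it rose from 266 to 474 CPM (median 337) to 371 to 1243 CPM (median 621), with overlap (log2 1.06 ± 0.22, adjusted p = 0.000263).

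The 3 remaining type VI genes, Col6a4, Col6a5 and Col6a6, are neighbours on chromosome 9 and encode chains that can stand in for that of Col6a3. They were scarce and did not move together. Col6a5 lay at 0.235 to 0.564 CPM (median 0.302) in Wt and 0.952 to 4.46 CPM (median 1.83) in E138A ears at day 5, with no overlap, the largest rise of any member at that time (log2 2.75 ± 0.57, adjusted p = 0.000459). At 1 month its RNA lay at 1.24 to 11.2 CPM (median 2.57) in Wt and 6.27 to 14.8 CPM (median 9.82) in E138A ears (log2 1.50 ± 0.45, adjusted p = 0.00791). The overlap came from Wt replicate 3, and without it the log2 fold change was 2.23 (adjusted p = 5.39e-05).

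Col6a4 had 5 and 29 counts summed over the 6 libraries of Wt and E138A at day 5, and 4 and 124 at 1 month. Per library this was 0 to 0.119 CPM (median 0.0305) and 0.110 to 0.424 CPM (median 0.248), then 0 to 0.0921 CPM (median 0.0209) and 0.549 to 1.58 CPM (median 0.940). The ranges were apart at 1 month only. The fitted log2 fold changes, 2.31 ± 0.63 (adjusted p = 0.00470) and 4.76 ± 0.55 (adjusted p = 2.09e-07), rest on these few Wt counts. In mice this gene encodes a type VI chain that humans lack as a working gene. Col6a6 went the other way, from 16.2 ± 4.22 to 3.45 ± 1.77 CPM at day 5 (log2 -2.18 ± 0.26, adjusted p = 6.11e-07). At 1 month the gene was at 13.1 ± 2.27 CPM in Wt and 16.2 ± 5.06 CPM in E138A ears (adjusted p = 0.231).

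The network-forming collagens of short chains, Col8a1, Col8a2 and Col10a1, fell at both times. Type VIII collagen lies under vascular and corneal endothelium. Col8a1 lay at 389 to 659 CPM (median 596) in Wt and 70.6 to 194 CPM (median 121) in E138A ears at day 5, a 4.41-fold fall with no overlap (log2 -2.14 ± 0.36, adjusted p = 5.53e-05). In ears taken at 1 month it lay at 197 to 829 CPM (median 524) in Wt and 52.0 to 242 CPM (median 132) in E138A ears (log2 -1.89 ± 0.36, adjusted p = 0.000133). The overlap there came from Wt replicate 2. The E138A libraries of 1 month lay apart by GC set, so none lay near their median. Replicates 1, 2 and 6 were at 52.0, 61.0 and 66.2 CPM and replicates 3, 4 and 5 at 198, 242 and 209 CPM. The log2 fold change was -1.70 within the 1 month libraries of GC correlation below 0 and -2.71 within those above 0. Col8a2 fell from 123 ± 10.9 to 44.4 ± 13.9 CPM and from 136 ± 30.0 to 46.6 ± 12.4 CPM (log2 -1.43 ± 0.19 and -1.47 ± 0.19).

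Col10a1, the collagen of hypertrophic cartilage, lay at 7.02 to 22.6 CPM (median 14.8) in Wt and 1.42 to 4.05 CPM (median 2.83) in E138A ears at day 5, the largest fall of any member then (log2 -2.27 ± 0.34, adjusted p = 1.10e-05). At 1 month it lay at 10.9 to 36.3 CPM (median 26.7) in Wt and 3.74 to 10.9 CPM (median 5.07) in E138A ears (log2 -2.11 ± 0.32, adjusted p = 1.00e-05), where the lowest Wt and the highest E138A library both stood at 10.9 CPM. The cartilage markers given above moved the same way.

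The collagens that attach to the surface of fibrils without forming any (FACITs) differed from each other. Col12a1, found in dense dermis and tendon and at sites of strain, had the largest called rise at 1 month after Col6a4. It was at 116 ± 18.2 CPM in Wt and 91.9 ± 18.2 CPM in E138A ears at day 5 (log2 -0.28 ± 0.17, adjusted p = 0.195). In the 1 month ears it rose 4.95-fold, from 77.3 ± 15.7 to 363 ± 105 CPM, with ranges apart (log2 2.31 ± 0.18, adjusted p = 9.14e-10). The counts of Col12a1 relative to Col1a1 were 0.0256 ± 0.00203 in Wt and 0.0719 ± 0.0120 in E138A ears at day 5, with ranges apart, and 0.0343 ± 0.0104 and 0.0853 ± 0.0324 at 1 month, with overlap.

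Col14a1, its close relative, fell from 75.7 ± 8.14 to 37.2 ± 11.1 CPM at day 5 and rose from 72.8 ± 10.7 to 166 ± 42.9 CPM at 1 month (log2 -0.98 ± 0.17 and 1.27 ± 0.17), with ranges apart both times. Col16a1, a FACIT of the dermal and epidermal border, fell from 246 ± 7.84 to 105 ± 27.5 CPM at day 5 (log2 -1.19 ± 0.18) and was at 236 ± 27.6 CPM in Wt and 235 ± 88.8 CPM in E138A ears at 1 month (adjusted p = 0.727). Col20a1, a FACIT of low level, fell from 8.30 ± 0.816 to 3.91 ± 1.28 CPM and from 7.34 ± 2.61 to 2.83 ± 0.534 CPM (log2 -1.04 ± 0.20 and -1.28 ± 0.20).

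Col22a1, a collagen of tissue junctions such as those of muscle and tendon, lay at 9.06 to 13.5 CPM (median 9.996) in Wt and 2.85 to 9.12 CPM (median 4.34) in E138A ears at day 5 (log2 -1.04 ± 0.23, adjusted p = 0.000761). A month after the first injection it lay at 10.02 to 21.1 CPM (median 14.8) in Wt and 1.74 to 3.81 CPM (median 2.43) in E138A ears, with no overlap and the largest fall of the other collagens (log2 -2.46 ± 0.24, adjusted p = 1.93e-08). Skeletal muscle markers moved beside it. Of 5, 4 fell at day 5 (20.2% of all genes) and all 5 fell at 1 month (21.5%). Their summed level was 3622 to 4726 CPM in Wt and 1465 to 3179 CPM in E138A ears at day 5, and 4985 to 12655 and 750 to 2961 CPM at 1 month. Their part in the falls of Col22a1 and of Col25a1, described next, was not tested.

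The 3 collagens that span the cell membrane differed too. Col13a1, found at cell contacts and the nerve to muscle junction, fell from 3.32 ± 0.543 to 1.95 ± 0.592 CPM at day 5 and rose from 2.83 ± 0.768 to 9.27 ± 1.46 CPM at 1 month (log2 -0.71 ± 0.20 and 1.80 ± 0.19). Col23a1 was at 29.8 ± 2.86 CPM in Wt and 35.8 ± 5.83 CPM in E138A ears at day 5 (log2 0.31 ± 0.15, adjusted p = 0.103), and without the 3 libraries above 0.4 it was called higher (adjusted p = 0.0117). It rose from 36.1 ± 7.38 to 93.2 ± 22.8 CPM at 1 month (log2 1.46 ± 0.15, adjusted p = 6.01e-08), with ranges apart. Col25a1, which nerve contact with muscle needs, fell from 4.34 ± 1.03 to 2.07 ± 0.927 CPM and from 3.83 ± 1.90 to 1.65 ± 1.08 CPM (log2 -1.03 ± 0.40 and -1.18 ± 0.40, adjusted p = 0.0398 and 0.0166). Its day 5 call was lost in 8 of the 24 fits that left out 1 library. Its 1 month call was lost without Wt replicate 6 (log2 -0.95, adjusted p = 0.0590). It was also lost with limma voom (log2 -0.43, adjusted p = 0.270) and with only the libraries compared (log2 -1.21, adjusted p = 0.0565). In E138A ears at 1 month, replicates 1, 2 and 6 were at 0.631, 0.869 and 0.547 CPM and replicates 3, 4 and 5 at 2.26, 2.80 and 2.79 CPM. Col28a1, a collagen known from peripheral nerve, was at 6.70 ± 1.65 and 5.51 ± 1.08 CPM at day 5 and at 4.86 ± 1.91 and 7.28 ± 4.09 CPM at 1 month, in Wt and E138A ears (adjusted p = 0.559 and 0.0821). Of 4 Schwann cell markers 2 fell at day 5 (20.2% of all genes) and 3 at 1 month (21.5%). Their summed levels were 379 to 460 and 204 to 330 CPM, then 336 to 601 and 148 to 223 CPM.

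**Figure D5:**
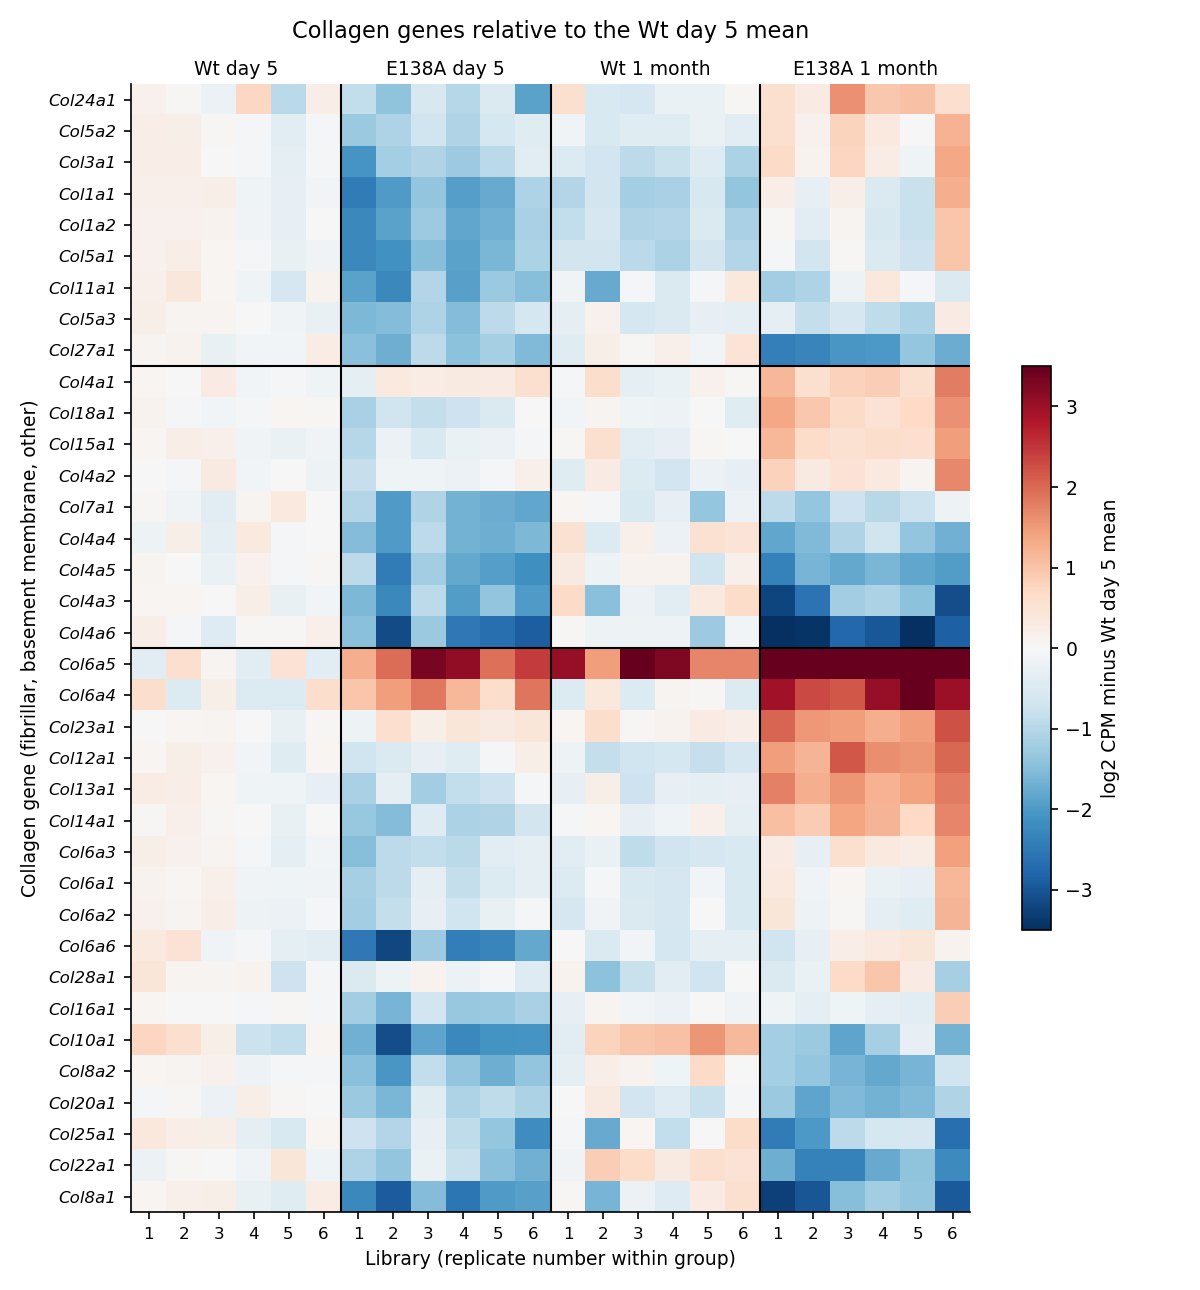
Log2 CPM of the 36 tested collagen genes (rows, grouped as fibrillar, basement membrane and other) in the 24 libraries (columns), relative to the mean of the Wt day 5 libraries, with colours limited at 3.5 in either direction. The E138A day 5 block is mostly blue, and the E138A 1 month block holds red genes such as Col12a1 and blue genes such as Col4a6 and Col22a1 side by side.

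Whether the difference between genotypes itself changed with time was tested as an interaction. In 21 of the 36 members the difference was higher at 1 month than at day 5, where 4.68% of all genes were, and in Col22a1 it was lower, where 4.09% were. By class this was 8 of 9 fibrillar, 4 of 9 basement membrane and 9 of 18 other genes. Col1a1 had the largest shift, with a change in log2 fold change of 2.86 ± 0.39 (adjusted p = 4.05e-05), and Col12a1 the smallest p (2.58 ± 0.24, adjusted p = 2.48e-07). The shift of Col27a1, the only fibrillar gene without a call, was -0.65 ± 0.24 (adjusted p = 0.0983). Of the type IV genes Col4a2 alone was called (1.18 ± 0.31, adjusted p = 0.0157), and Col4a1, at 0.69 ± 0.27, was not (adjusted p = 0.120). The calls of Col5a3, Col6a2 and Col7a1 were lost in 14, 7 and 7 of the 24 fits that left out 1 library. Without the 3 libraries above 0.4, 20 members were called higher and 1 lower. Col6a2 and Col7a1 then lost the call (adjusted p = 0.0711 and 0.0525).

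In Wt ears 5 of the 36 members changed with time, and this count depended on the method. Between day 5 and 1 month Col6a5 rose (6.28% of all genes did) and Col1a1, Col1a2, Col5a1 and Col12a1 fell (2.81% did), with log2 fold changes of 3.39 ± 0.56, -0.97 ± 0.27, -0.85 ± 0.24, -0.83 ± 0.23 and -0.62 ± 0.17. With limma voom 3 members rose and 15 fell. The Wt ranges of the 2 times were apart for Col6a5, which was higher (4.36% of all genes), and for Col1a1, Col1a2, Col5a1 and Col3a1, which were lower (1.35%). Col3a1 missed the threshold there (adjusted p = 0.0516). The 3 falls of fibrillar genes were each lost in 6 of the 24 fits that left out 1 library, and the count of falls was 0 without Wt day 5 replicate 2 or 3. It was 1 without Wt day 5 replicate 1 or Wt 1 month replicate 3, 4 or 6. Without Wt 1 month replicate 3 the rise of Col6a5 was 2.67 on the log2 scale, smaller by 1.65-fold. In E138A ears 25 members rose over the same time (11.2% of all genes) and Col4a6, Col22a1 and Col27a1 fell (8.23%). In 20 members all 1 month libraries lay above all day 5 libraries (5.36% of all genes), and in 0 they lay below (3.14%). The largest of these rises were in Col13a1 (log2 2.24 ± 0.20), Col6a6 (2.22 ± 0.26) and Col14a1 (2.16 ± 0.17). Without E138A day 5 replicate 3 the falls of Col4a6 and Col27a1 were not called. Without the 3 libraries above 0.4, 1 member rose and 6 fell in Wt ears, and 23 rose and 3 fell in E138A ears. In E138A ears the rises of Col5a3, Col6a2 and Col7a1 were then not called (adjusted p = 0.150, 0.248 and 0.0729). Nor was the fall of Col27a1 (adjusted p = 0.0662). Library totals also differed between the times, and the part of depth in these changes was not tested.

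Genes that make, trim and cross-link collagen moved in both directions. Of 30 such genes, 12 fell (20.2% of all genes) and 2 rose (20.7%) at day 5. At 1 month 10 fell (21.5%) and 5 rose (25.5%). The medians were -0.50 and -0.07, against -0.02 and 0.05 over all genes. P4hb, a subunit of the enzyme that hydroxylates proline, rose at both times, from 484 ± 11.2 to 756 ± 143 CPM and from 575 ± 76.9 to 917 ± 224 CPM (log2 0.70 ± 0.17 and 0.77 ± 0.17). Ppib, a folding enzyme of the same compartment, was not called at either time (adjusted p = 0.163 and 0.0582). Adamts2, which cuts the end from newly made type I and III collagen, fell and then rose (log2 -0.61 ± 0.20 and 0.86 ± 0.20). The largest rise at both times was in P4ha3, a catalytic subunit of prolyl hydroxylase, from 0.302 ± 0.149 to 1.22 ± 0.310 CPM and from 0.238 ± 0.123 to 2.80 ± 0.758 CPM (log2 2.04 ± 0.35 and 3.60 ± 0.34). The largest fall was in Adamts14, a relative of Adamts2, from 105 ± 8.82 to 27.4 ± 9.17 CPM and from 84.2 ± 17.5 to 21.8 ± 6.11 CPM (log2 -1.90 ± 0.18 and -1.87 ± 0.18).

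Of 9 genes for collagen breakdown 7 were tested. At day 5, 3 rose (20.7% of all genes) and 3 fell (20.2%), and at 1 month 5 rose (25.5%) and 1 fell (21.5%). The medians were -0.34 and 0.81. Mmp2, a metalloproteinase of fibroblasts, fell from 626 ± 57.8 to 369 ± 40.5 CPM and then rose from 530 ± 105 to 873 ± 330 CPM (log2 -0.72 ± 0.19 and 0.81 ± 0.19). Ctsk, the collagen-cutting cathepsin, did the same (log2 -0.63 ± 0.17 and 1.22 ± 0.17), and Mmp14, which activates Mmp2, was called at 1 month only (log2 0.74 ± 0.16). The largest rise was in Mmp8, the neutrophil collagenase, from 0.0816 ± 0.0498 to 10.7 ± 7.41 CPM at day 5 and from 0.152 ± 0.159 to 1.70 ± 0.621 CPM at 1 month, with 8 and 19 counts over the Wt libraries. The largest fall was in Mrc2, the receptor that takes up collagen fragments (log2 -1.56 ± 0.13 and -1.25 ± 0.13).

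Of 12 proteins that coat or space the fibrils, 7 fell (20.2% of all genes) and none rose (20.7%) at day 5. At 1 month 4 fell (21.5%) and Lum rose (25.5%). The medians were -0.90 and -0.46. Sparc, a collagen-binding protein, fell at day 5 from 2818 ± 392 to 1074 ± 219 CPM (log2 -1.34 ± 0.25) and was not called at 1 month (adjusted p = 0.484). Dcn, the main proteoglycan of dermal fibrils, was not called at day 5 (adjusted p = 0.226) and fell at 1 month (log2 -0.69 ± 0.22), and Bgn, its relative, fell at day 5 only (log2 -0.69 ± 0.19). Among these proteoglycans Lum, which limits fibril width, rose at 1 month (log2 0.98 ± 0.29), and Fmod fell at both times (log2 -1.02 ± 0.20 and -1.51 ± 0.20). The largest fall at day 5 was in Kera (log2 -1.97 ± 0.39).

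Of 9 collagen receptors 8 were tested. At day 5, 1 rose (20.7% of all genes) and 2 fell (20.2%), and at 1 month 2 rose (25.5%) and 2 fell (21.5%). The medians were -0.16 and 0.09. Itgb1, the integrin chain shared by all collagen-binding integrins, and Ddr2, a collagen-sensing kinase of fibroblasts, were called at neither time (adjusted p = 0.572 and 0.442, and 0.282 and 0.984). Ddr1, its epithelial relative, fell at 1 month (log2 -0.38 ± 0.13). Itga11, the fibroblast integrin for type I collagen, fell from 13.0 ± 0.735 to 4.02 ± 1.04 CPM at day 5 and rose from 14.1 ± 2.22 to 20.3 ± 6.62 CPM at 1 month (log2 -1.64 ± 0.19 and 0.61 ± 0.18). Lair1, a collagen receptor of leukocytes, rose both times (log2 1.26 ± 0.27 and 1.49 ± 0.27), and Itga10, an integrin of cartilage, fell both times (log2 -0.81 ± 0.17 and -1.60 ± 0.17).

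TGF-beta is the best known inducer of fibrillar collagen genes. Of 16 genes for its ligands, receptors, signalling proteins and binding proteins, 9 fell (20.2% of all genes) and 2 rose (20.7%) at day 5. At 1 month 8 fell (21.5%) and 2 rose (25.5%). The medians were -0.34 and -0.35. Tgfb1 rose at both times, from 36.7 ± 2.37 to 72.3 ± 15.2 CPM and from 35.4 ± 8.54 to 68.4 ± 21.0 CPM (log2 1.03 ± 0.20 both times), and Tgfb2 fell at both times (log2 -1.56 ± 0.20 and -1.11 ± 0.20). Ccn2, a matrix protein that TGF-beta induces, fell from 485 ± 77.3 to 342 ± 66.9 CPM and from 870 ± 176 to 299 ± 60.2 CPM (log2 -0.46 ± 0.16 and -1.46 ± 0.16). Tgfbi, another induced matrix protein, was not called at day 5 (adjusted p = 0.189) and fell at 1 month (log2 -0.45 ± 0.14). Ltbp4, which binds latent TGF-beta in the matrix, fell both times (log2 -1.10 ± 0.17 and -0.87 ± 0.17).

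Markers of the cells that make these collagens were read in the same fit. Of all genes in it, 20.7% rose and 20.2% fell at day 5, and 25.5% rose and 21.5% fell at 1 month. Of 10 fibroblast markers 2 rose and 4 fell at day 5, and 4 rose and 3 fell at 1 month. Their median log2 fold changes were -0.43 and 0.22. Their summed level was 2809 to 3928 CPM in Wt and 2270 to 3082 CPM in E138A ears at day 5. At 1 month it was 2439 to 4989 and 1794 to 3218 CPM. The range of the sum in E138A ears at 1 month began and ended below that in Wt ears, while the median log2 fold change was positive. Of 5 markers of pericytes and smooth muscle, 2 fell at day 5, and 1 rose and 2 fell at 1 month, with summed levels of 425 to 543 and 206 to 364 CPM, then 468 to 1122 and 292 to 470 CPM. Of 4 adipocyte markers 3 fell at day 5 and 4 at 1 month, with summed levels of 279 to 466 and 123 to 259 CPM, then 393 to 802 and 130 to 210 CPM. Of 5 leukocyte markers 3 rose and 1 fell at day 5, and 4 rose and 1 fell at 1 month, with summed levels of 216 to 299 and 304 to 695 CPM, then 234 to 486 and 517 to 958 CPM. The part of these cell types in the collagen results was not tested.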

How the data were processed

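Whole-ear RNA of 24 samples was sequenced as polyA RNA, single end, per the labels' protocols. The authors deposited 1 table of expected counts per gene, and the submitters' processing notes name STAR 2.5.2, RSEM 1.3.0, DESeq2 1.14.1 and build GRCm38. Of the count values, 6.71% were not whole and were rounded. Of the gene IDs, 51633 matched GENCODE M21 and 279 did not. No source used here says whether counting used strand.

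Counts were fitted with edgeR 4.0.16 (R 4.3.3; filterByExpr, TMM, robust quasi-likelihood test) over all 24 libraries and 4 groups, and p-values were adjusted by Benjamini-Hochberg over 17287 genes, with calls below 0.05. Intervals are not printed, and the SE is the log2 fold change divided by the root of F. CPM are counts per 1000000 of the library total, and CPM per kilobase uses the longest principal transcript. Alternatives used DESeq2 1.42.0, limma 3.58.1 (voom with sample weights), other scalings and filters, each library left out, and a replicate block. Another 4, based on GC correlation, were chosen after seeing the data. The GC correlation of a library is that of gene GC content with the deviation of the gene from its mean log2 CPM.

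On simulated day 5 counts (17287 genes) the test called 22 of 67 genes changed by 1.5-fold, 44 of 67 by 2-fold and 64 of 66 by 4-fold, and 5 of 16844 unchanged genes. No pair of libraries within a group agreed within sampling noise (pairs across groups were not compared; smallest chi-square per degree of freedom 4.86). Described in full were, in each class, the 4 members with the highest CPM per kilobase and the largest rise and fall at each time, and of each pathway list the 3 most abundant genes with the largest rise and fall. Other members and genes named, such as Itga11 and Acan, were added after their values were seen. The members and lists were chosen with earlier results of these data known.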

Additional observations from a re-analysis of the deposited data

Results flagged for a closer look

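Each member and share was examined in each group of 6 for a library whose gap to its nearest neighbour exceeded 0.625 of the group's range (Dixon's 95% value). This was so in 23 of 164 groups. The rate of about 1 in 20 that belongs to this value holds for independent groups of normal values. Members share libraries, so the groups are not independent, and the count cannot be set against that rate. In E138A replicate 6 at 1 month Col1a1 (10054 CPM), Col4a2 (590 CPM), Col6a1 (1648 CPM), Col6a2 (1441 CPM), Col16a1 (413 CPM) and the basement membrane share of counts (0.182%) stood above the other 5 libraries. In Wt replicate 2 at 1 month Col4a1 (331 CPM), Col4a2 (265 CPM), Col5a3 (128 CPM), Col15a1 (82.5 CPM), Col16a1 (291 CPM) and Col23a1 (50.7 CPM) stood above. Both libraries are among the 3 with a GC correlation above 0.4. In other Wt libraries at 1 month Col5a2 (316 CPM) and Col12a1 (107 CPM) were high in replicate 1, Col6a5 (11.2 CPM) was high in replicate 3 and Col4a6 (18.4 CPM) was low in replicate 5. Col10a1 (10.9 CPM) was high in E138A replicate 5 at 1 month. At day 5 Col4a1 (153 CPM) and Col4a2 (112 CPM) were low in E138A replicate 1, and Col4a4 (4.72 CPM) and Col16a1 (158 CPM) were high in E138A replicate 3. In Wt ears at day 5 Col4a2 (247 CPM) was high in replicate 3 and Col23a1 (24.1 CPM) was low in replicate 5.

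The difference between E138A and Wt ears itself differed between the times, by the interaction test of edgeR, in 22 members. The shift from day 5 to 1 month in log2 fold change was 2.86 for Col1a1, 2.58 for Col12a1, 2.55 for Col6a6, 2.51 for Col13a1, 2.50 for Col5a1, 2.49 for Col1a2 and 2.38 for Col3a1. It was 2.24 for Col14a1, 2.11 for Col24a1, 1.85 for Col6a3, 1.77 for Col5a2, 1.74 for Col18a1 and 1.50 for Col11a1. It was 1.28 for Col6a1 and Col16a1, 1.20 for Col15a1, 1.18 for Col4a2, 1.15 for Col23a1, 1.12 for Col6a2, 1.06 for Col7a1, 0.96 for Col5a3 and -1.42 for Col22a1.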

How the results depend on the processing

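Of the values tallied for single members under the alternatives, 4204 kept their direction and side of the threshold. Another 121 lost the call, 30 gained it and 9 changed sign. For the interaction and the changes over time, only members already called in the main fit were tallied. Calls gained there are therefore not among the 30, and the counts that follow show only part of them. With each library left out in turn, members called ran from 2 to 3 higher and 26 to 28 lower at day 5, and from 17 to 19 and 10 to 13 at 1 month. The interaction gave 18 to 22 higher and 1 to 2 lower, Wt time 1 to 2 higher and 0 to 5 lower, and E138A time 22 to 25 higher and 1 to 3 lower. With limma voom 4 members were higher at day 5, and 25 were higher and 2 lower in the interaction. Voom gave 3 higher and 15 lower over Wt time, and 27 higher and 2 lower over E138A time. With at least 1 CPM in 6 libraries 1 member was higher at day 5, and with DESeq2 2 were higher over Wt time. With GC correlation as a covariate 23 were higher in the interaction, 7 fell over Wt time and 26 rose over E138A time. With only the libraries compared 1 fell over E138A time. As a share of protein-coding counts the basement membrane class took 0.0943% in Wt ears at day 5. Changes of sign were in members not called at 1 month. Col11a1 was at 0.27 with voom and at -0.33 to 0.0367 with a library left out. Col16a1 was at -0.13 with voom, -0.0047 with total counts only, -0.18 without the 3 libraries, -0.0913 within those of GC correlation below 0 and -0.22 to 0.15 with a library left out. Col5a3 was at 0.0415 within those above 0. The cause was not tested. With the replicate block 2 members were higher and 26 lower at day 5, 18 and 11 at 1 month, 19 and 1 in the interaction, 1 and 4 over Wt time and 24 and 3 over E138A time. Same-numbered samples showed no sign of pairing. Their correlations ran from -0.158 to 0.0514 at day 5 and from -0.733 to 0.258 at 1 month. At each time 0 of 6 matched best with their own number. These correlations cannot exclude a pairing, because libraries also differed in GC correlation, most so at 1 month. Precision for Col6a4, Col19a1 and Col26a1 is limited by counts.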
